A study of Mus musculus with 18 samples.

Results

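The expression of 10 genes of the pericentral Wnt and glutamine programme was followed in liver RNA-seq of ICR male mice. The genes were Glul, Slc1a2, Rhbg, Oat, Axin2, Lgr5, Lect2, Tbx3, Znrf3 and Rnf43, found by symbol among the 19057 lines of the table. All 10 passed the filter on low values (3 or more libraries at 1 RPKM or above), as did 10507 genes in all. RPKM is the number of reads per kilobase of gene and per fixed number of mapped reads, so that levels can be set side by side between genes. Liver was taken from 18 mice labelled as 10 weeks old, 3 in each of 6 groups. Con mice received the regular diet, and AOS mice received the regular diet with alginate oligosaccharide, a short-chain product of seaweed alginate, at 10 mg/kg. HFD mice received the high-fat diet, and HFD+AOS mice the high-fat diet with the same dose of AOS. Con-FMT and A10-FMT mice were also fed the high-fat diet and received intestinal contents from control donors or from donors dosed with AOS at 10 mg/kg, respectively. By the study's methods the donor contents were pooled within a group, so that each transplant group rests on 1 pooled inoculum. The question the series' design text gives is what the transplant does to a liver damaged by the high-fat diet.

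In the liver lobule, blood flows from the portal tract to the central vein, and hepatocytes differ along the way. Endothelial cells of the central vein secrete Wnt ligands and R-spondin, which keep beta-catenin stable in the nearest hepatocytes, and TCF/LEF factors with beta-catenin then switch on the pericentral programme. Those hepatocytes hold glutamine synthetase, the product of Glul, which joins to glutamate the ammonia that escaped the periportal urea cycle. Slc1a2 carries glutamate into the cell, Rhbg carries ammonium, and Oat (ornithine aminotransferase) feeds ornithine into glutamate. Lect2 codes for a protein secreted by hepatocytes and Tbx3 for a transcription factor, and both are known targets of beta-catenin in liver. Axin2 is a scaffold of the complex that degrades beta-catenin, and it is itself switched on by the pathway as a feedback inhibitor. Lgr5 is a receptor of R-spondins. Znrf3 and Rnf43 are ubiquitin ligases that remove Frizzled receptors from the membrane, unless R-spondin with an Lgr receptor takes them away.

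Promoter sequences are shown for Lect2, Glul and Axin2, the genes that passed the test between high-fat livers with and without AOS in the treatment of the mouse or its donor. Each line gives the 250 bases before the RefSeq start site in GRCm38.p6, read 5′ to 3′ on the strand of the gene. Capitals mark a TCF/LEF motif, searched as CTTTGAT and, for the other strand, ATCAAAG.
Lect2 promoter, chr13:56548539-56548788, minus strand: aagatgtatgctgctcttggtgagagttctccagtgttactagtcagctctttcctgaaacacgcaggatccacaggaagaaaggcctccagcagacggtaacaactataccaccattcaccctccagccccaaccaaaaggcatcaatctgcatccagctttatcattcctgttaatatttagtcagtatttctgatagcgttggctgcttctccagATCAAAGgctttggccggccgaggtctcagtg
Glul promoter, chr1:153899679-153899928, plus strand: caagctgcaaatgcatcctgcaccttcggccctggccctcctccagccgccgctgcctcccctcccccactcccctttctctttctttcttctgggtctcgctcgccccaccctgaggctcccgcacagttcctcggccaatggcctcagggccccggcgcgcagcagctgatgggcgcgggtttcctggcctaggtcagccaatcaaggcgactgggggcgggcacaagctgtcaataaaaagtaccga
Axin2 promoter, chr11:108920099-108920348, plus strand: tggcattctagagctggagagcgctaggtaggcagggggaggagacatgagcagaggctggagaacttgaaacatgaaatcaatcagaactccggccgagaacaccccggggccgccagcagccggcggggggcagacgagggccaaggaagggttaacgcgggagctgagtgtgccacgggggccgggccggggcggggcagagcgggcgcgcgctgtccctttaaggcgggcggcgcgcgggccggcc
Lect2 held the motif with its first letter 32 bases before the start site, whereas these windows of Glul and Axin2 did not hold these letters. RefSeq promoter entries were matched for 6 of the 10 genes, with 7 start sites. The motif was present in the windows of 2 genes, Lect2 and Slc1a2, the latter 207 bases before a start site inside the gene. Of all 32851 windows of this length, 1053 (3.21%) held the motif. The windows differed in base composition, with a GC content of 48% for Lect2, 64.8% for Glul and 69.2% for Axin2. The genes themselves lie on 8 chromosomes, and Axin2, Znrf3 and Rnf43 share chromosome 11 without being neighbours. In GENCODE M21 (GRCm38), Slc1a2 lies at chr2:102658659-102790784 on the plus strand, Rhbg at chr3:88242874-88254709 on the minus strand, Tbx3 at chr5:119670669-119684724 on the plus strand, Lgr5 at chr10:115450311-115587780 on the minus strand and Znrf3 at chr11:5276324-5444847 on the minus strand, and the places of the others are given with their values.

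The depth of the libraries was not given. It was estimated from the step between neighbouring low values of 78 genes, which 1 read sets, and from their annotated lengths, at about 12700000 reads per library (quartiles 10900000 to 13900000). At that depth, the median level stood for about 6470 reads for Glul but 99.1 for Axin2, 99.8 for Znrf3 and 59.1 for Lgr5, for which counting alone gives a coefficient of variation of 13%. Some libraries stood apart. For 145 of 148 genes on which the other Con libraries differed by a log2 of at least 1, the third Con library lay between them (98%), and for the third AOS library this held for 137 of 142 (96.5%). In the other 16 libraries the same share was 8.33% to 76.8%. Results are therefore also given without the third Con and AOS libraries. Replicate 1 of A10-FMT held markers of fat cells. Its 4 adipocyte markers (Adipoq, Lep, Plin1 and Cfd, 0 of them past the filter) summed to 27.7 RPKM, of which Cfd made up 22.05, whereas Cfd was at 1.34 and 0.08 in the other A10-FMT livers and the sum was at most 0.32 in any liver outside A10-FMT. The labels do not say more about the origin of the replicates, so p-values measure only the spread between these samples. In whole liver, fewer cells of a type and less RNA per cell cannot be told apart. Hepatocyte markers (6 of 6 tested) summed to between 38100 and 65400 RPKM in every library.

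Glul was the most abundant of the 10 genes, with a median of 182.5 RPKM over the 18 livers and a range of 161.65 to 255.10. The gene lies at chr1:153899944-153909723 on the plus strand (GENCODE M21, GRCm38). Con livers had 186.19, 166.90 and 180.53 RPKM, AOS livers 177.42, 177.37 and 170.59, and HFD livers 184.47, 161.65 and 191.37. HFD+AOS livers had 221.03, 233.10 and 255.10 RPKM. All 3 lay above every liver of the other groups, since Con-FMT livers had 212.15, 170.54 and 165.08 and A10-FMT livers 173.71, 196.02 and 219.68. HFD+AOS was thus first in the order of group means (236.4 ± 17.3, SD, n = 3), and the next group, A10-FMT (196.5 ± 23), did not overlap it. The other neighbours in the order, with means from 175.1 in AOS to 182.6 in Con-FMT, overlapped.

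The transporters and Oat were less uniform. Slc1a2 had a median of 15.89 RPKM. Its values were 12.77, 15.96 and 14.47 in Con, 12.92, 15.01 and 13.04 in AOS, 21.47, 12.32 and 14.28 in HFD, and 19.16, 20.55 and 16.58 in HFD+AOS. Con-FMT livers had 14.50, 16.01 and 15.82 RPKM and A10-FMT livers 17.26, 17.69 and 18.82, so that the 2 transplant groups did not overlap, although the highest single value was in an HFD liver. Rhbg had a median of 7.12 RPKM and overlapped between all neighbouring groups. Its liver values went from 4.81 in Con-FMT to 11.05 in Con. Oat had a median of 74.43 RPKM. Its highest value, 173.63, was in replicate 1 of HFD+AOS, whereas the other livers of that group had 68.48 and 71.67 RPKM. Without that replicate the highest value over all livers was 100.13, in replicate 3 of Con-FMT, whose other livers had the lowest values of all, 55.36 and 58.55. The remaining Oat values were 72.76 to 81.62 in Con, 68.78 to 91.62 in AOS, 79.14 to 94.96 in HFD and 58.66 to 70.96 in A10-FMT. A10-FMT lay below HFD without overlap, but the difference did not pass the test (limma adjusted p = 0.385).

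Lect2 was the target gene with the widest span of group means, the highest 1.97 times the lowest. The gene lies at chr13:56542464-56548502 on the minus strand. On the regular diet it had 75.73, 89.43 and 79.07 RPKM in Con and 93.89, 89.71 and 85.81 in AOS. On the high-fat diet without AOS it had 93.30, 110.34 and 96.34 RPKM in HFD and 124.90, 88.28 and 99.40 in Con-FMT. With AOS given to the mouse, Lect2 had 176.56, 138.72 and 165.43 RPKM in HFD+AOS. With AOS given only to the donors, it had 132.58, 154.18 and 130.64 in A10-FMT. These 6 livers were above the other 12, whose highest value was 124.90. In the order of means, HFD+AOS (160.2 ± 19.4, n = 3) and A10-FMT (139.1 ± 13.1) overlapped, and A10-FMT did not overlap the next group, Con-FMT (104.2 ± 18.8). Tbx3 had a median of 6.43 RPKM, with means from 5.187 ± 1.28 in A10-FMT to 7.173 in Con-FMT. Replicates 1 and 3 of A10-FMT had 4.47 and 4.42 RPKM, the lowest of the 18, but replicate 2 had 6.67, within the 6.23 to 8.53 of HFD.

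Among the genes that restrain the pathway, Axin2 and Rnf43 differed in pattern. Axin2 (chr11:108920349-108950783, plus strand) had a median of 1.83 RPKM. It had 1.72, 2.02 and 2.02 RPKM in Con, 1.62, 2.16 and 1.93 in AOS, 1.97, 3.00 and 2.00 in HFD, and 2.04, 2.38 and 1.47 in Con-FMT. HFD+AOS livers had 1.56, 1.27 and 1.73 RPKM and A10-FMT livers 0.93, 1.46 and 1.31. Both groups lay below HFD without overlap, and replicate 2 of HFD was the highest of all. Rnf43 (chr11:87662722-87735539, plus strand) had a median of 4.46 RPKM. Con livers had 2.79, 3.74 and 3.78 RPKM, AOS livers 3.78, 2.77 and 2.91, and HFD livers 3.48, 4.52 and 4.40. HFD+AOS livers had 6.07, 5.34 and 5.39, Con-FMT livers 5.05, 5.08 and 3.61, and A10-FMT livers 4.75, 5.07 and 5.39. Of the 12 high-fat livers only replicate 1 of HFD and replicate 3 of Con-FMT were within the range of the regular diet, 2.77 to 3.78. Znrf3, the partner of Rnf43 in function, was lower (median 1.245 RPKM, range 0.86 to 1.82), and Lgr5, the R-spondin receptor, was near the limit of the filter, with at least 1 RPKM in 8 of the 18 livers and a range of 0.48 to 1.51. Neither separated neighbouring groups. The plot of all genes by liver shows the small steps of the last 2 genes beside the clear shift of Lect2.

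**Figure D1:**
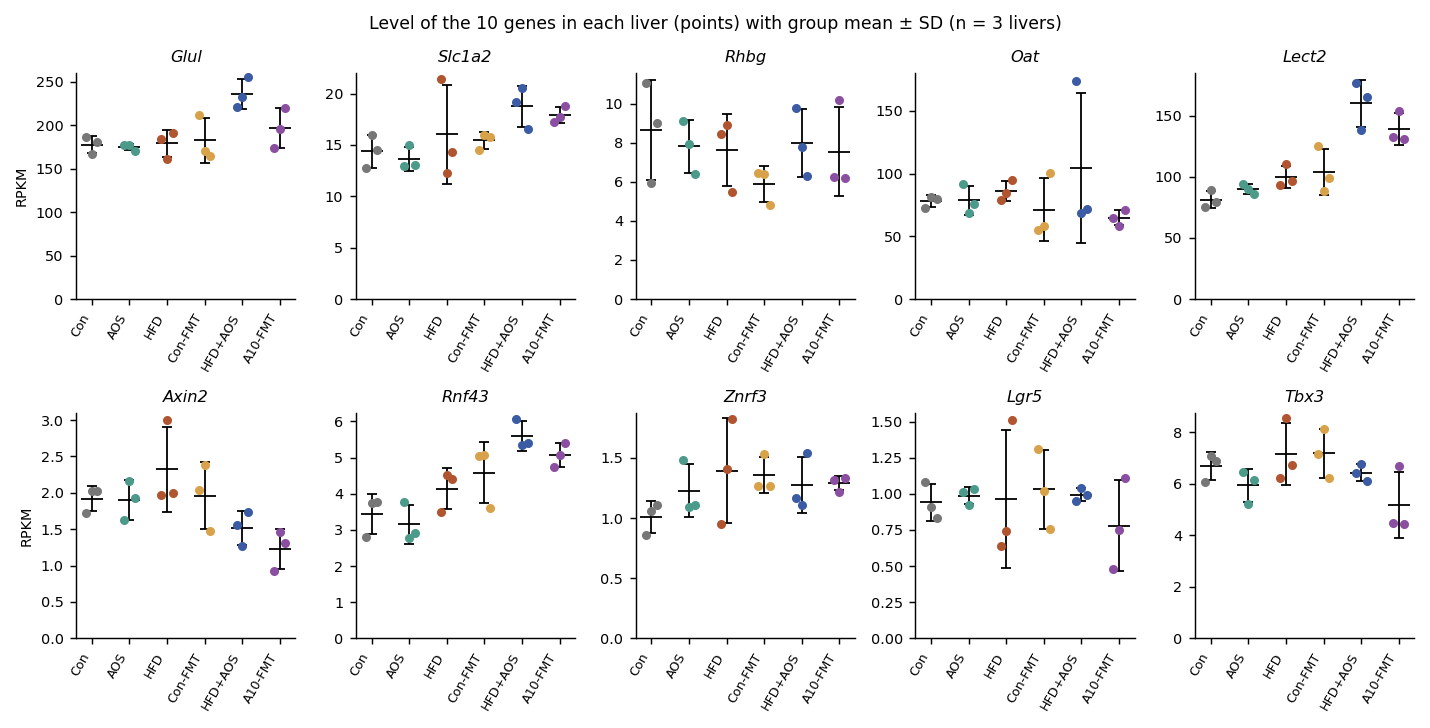
RPKM of the 10 genes in each of the 18 livers, by group, with points for livers and bars for the group mean and SD (n = 3). Lect2 reached 130.64 to 176.56 RPKM in HFD+AOS and A10-FMT and 75.73 to 124.90 in the other 12 livers, and 1 HFD+AOS liver stood apart in Oat at 173.63.

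The first comparison asks whether the diet moved these genes. Differences are given on the log2(RPKM + 1) scale, on which genes near 1 RPKM appear to change less than they do, and were called at a limma p under 0.05 after Benjamini-Hochberg adjustment over the 10507 genes. Between all 12 high-fat and all 6 regular-diet livers, Lect2 and Rnf43 rose. Lect2 was higher by 0.52 (SE 0.0759, adjusted p = 0.000458), with means of 125.9 and 85.61 RPKM. Rnf43 was higher by 0.44 (SE 0.0781, adjusted p = 0.00187), with means of 4.846 and 3.295 RPKM. Thus 2 of the 10 genes were called, where 12.9% of all genes tested were. The livers of the diets overlapped for each of the 10, so that 0 separated, against 0.628% of all genes. Without the third Con and AOS libraries, both remained called (Lect2, adjusted p = 0.0108, and Rnf43, adjusted p = 0.0166). Slc1a2 was higher by 0.25 (adjusted p = 0.0727) and Glul by 0.16 (adjusted p = 0.135), which did not pass. The groups pooled here differ in AOS and transplant as well as in diet.

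In the narrow comparison of HFD with Con, 0 of the 10 genes were called (0.381% of all genes, limma). At an unadjusted p under 0.05 there was 1, Lect2, higher by 0.29 (adjusted p = 0.27), and it was also the only one whose livers did not overlap (18.5% of all genes). The 95% intervals of the 10 differences lay between -0.63 and 0.73, so that differences of up to these sizes remain within the intervals of some genes. AOS on the regular diet, AOS against Con, gave 0 calls (0.133% of all genes) and 0 at an unadjusted p under 0.05. None of the 10 separated these groups (24.7% of all genes), and the intervals went from -0.59 to 0.59.

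AOS on the high-fat diet was compared as HFD+AOS against HFD. Lect2 rose by 0.67 (SE 0.124, adjusted p = 0.00433, limma), from a mean of 99.99 to 160.2 RPKM, and Glul rose by 0.40 (SE 0.108, adjusted p = 0.0324), from 179.2 to 236.4 RPKM. These were 2 of the 10, against 8.75% of all genes. Rnf43 was higher by 0.37 (adjusted p = 0.0839) and Axin2 lower, at -0.39 (adjusted p = 0.0902), and neither passed. For all 4 of these genes the livers did not overlap, as for 27.2% of all genes. Without the third Con and AOS libraries, which share the estimate of the spread, Lect2 kept its call (adjusted p = 0.0133) and Glul did not (adjusted p = 0.0664). The call of Glul was also lost without any 1 of the 3 HFD+AOS livers or of replicates 2 and 3 of HFD, and without replicate 2 of HFD its adjusted p was 0.122. The difference between the AOS effects on the diets, tested as an interaction, gave 0 calls (0.504% of all genes). Its values were 0.42 for Glul (adjusted p = 0.223), 0.53 for Lect2 (adjusted p = 0.182) and 0.46 for Rnf43 (adjusted p = 0.254).

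The transplant from AOS donors was compared with HFD and with the control transplant. Against HFD, Lect2 rose by 0.47 in A10-FMT (SE 0.124, adjusted p = 0.0329, limma) and Axin2 fell by 0.57 (SE 0.138, adjusted p = 0.0239), from a mean of 2.323 to 1.233 RPKM. These were 2 of the 10 genes, against 6.60% of all genes. Tbx3 was lower, at -0.41, without passing (adjusted p = 0.0744). Lect2 and Rnf43 above HFD, and Axin2 and Oat below it, did not overlap (4 of 10, against 23.4% of all genes). Both calls rest on single libraries and on the spread shared with the other groups. Without replicate 1 of A10-FMT, the liver with fat cell RNA and the lowest Axin2, the differences were 0.50 for Lect2 (adjusted p = 0.0754) and -0.47 for Axin2 (adjusted p = 0.11). Without replicate 2 of HFD, the highest in Axin2, the difference of Axin2 was -0.43 (adjusted p = 0.107), and without the third Con and AOS libraries Lect2 had an adjusted p of 0.0651 and Axin2 of 0.0504. The call of Lect2 was also lost without replicate 1 (adjusted p = 0.0652) or 3 (0.107) of HFD or replicate 2 of A10-FMT (0.148), and with only these 6 livers in the fit the adjusted p was 0.112 for Lect2 and 0.143 for Axin2.

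Against Con-FMT, which also received a transplant, 0 of the 10 genes were called in A10-FMT (1.68% of all genes, limma), and 3 had an unadjusted p under 0.05. Each group had 1 pooled inoculum, so AOS dosing of the donors cannot be told from other differences between the pools. Lect2 was higher by 0.42 (adjusted p = 0.105), Axin2 was at -0.40 (adjusted p = 0.158) and Tbx3 at -0.41 (adjusted p = 0.139). The livers did not overlap for Lect2, Slc1a2 and Axin2, 3 of 10 against 18.3% of all genes. Con-FMT against HFD gave 0 calls (0.00952% of all genes), 0 at an unadjusted p under 0.05, and 0 genes without overlap (10.1% of all genes). Its intervals lay between -0.91 and 0.39. The comparisons with HFD use the same 3 HFD livers, so that their values are not independent of each other.

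The groups in which AOS reached the mouse or its donor on the high-fat diet (HFD+AOS and A10-FMT, 6 livers) were then set against those without (HFD and Con-FMT, 6 livers). These livers entered the comparisons above as well. Livers with AOS are here those of dosed mice or of mice with dosed donors, and the A10-FMT mice themselves were not dosed. Lect2 was higher by 0.55 (SE 0.0876, adjusted p = 0.000937, limma), with 130.64 to 176.56 RPKM against 88.28 to 124.90. Axin2 was lower, at -0.40 (SE 0.0979, adjusted p = 0.0147), with 0.93 to 1.73 against 1.47 to 3.00 RPKM, and Glul was higher by 0.25 (SE 0.0762, adjusted p = 0.0356), with 173.71 to 255.10 against 161.65 to 212.15 RPKM. Thus 3 of the 10 were called, against 15.4% of all genes, and 1, Lect2, did not overlap, against 4.84%. Tbx3 (-0.27, adjusted p = 0.0649), Rnf43 (0.25, adjusted p = 0.0709) and Slc1a2 (0.22, adjusted p = 0.145) did not pass. Without the third Con and AOS libraries, Lect2 (adjusted p = 0.00349) and Axin2 (adjusted p = 0.0317) remained and Glul did not (adjusted p = 0.0647), and without replicate 1 of A10-FMT the 3 calls remained (adjusted p = 0.00231, 0.0429 and 0.0276 for Lect2, Axin2 and Glul). The call of Glul was also lost, at adjusted p-values up to 0.0894, without replicate 2 of HFD or replicate 2 or 3 of HFD+AOS, A10-FMT or Con-FMT.

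The 2 routes, AOS given to the mouse (HFD+AOS) or only to its donors (A10-FMT), were compared directly in a comparison added after the data were seen. None of the 10 genes was called, and neither was any gene tested (0.00%, limma), with 779 of all genes at an unadjusted p under 0.05. Glul, higher by 0.27 in HFD+AOS (adjusted p = 0.6), was the only one of the 10 at that level and the only one whose livers did not overlap (10.3% of all genes). The 95% intervals of the 10 differences lay between -0.40 and 1.13, and these values do not show that the routes act alike. The plot of the differences shows the estimates of Lect2 above 0 and those of Axin2 below 0 in HFD+AOS against HFD, in A10-FMT against HFD and Con-FMT, and between high-fat livers with and without AOS. Between the routes, Axin2 had means of 1.52 RPKM in HFD+AOS and 1.233 in A10-FMT.

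**Figure D2:**
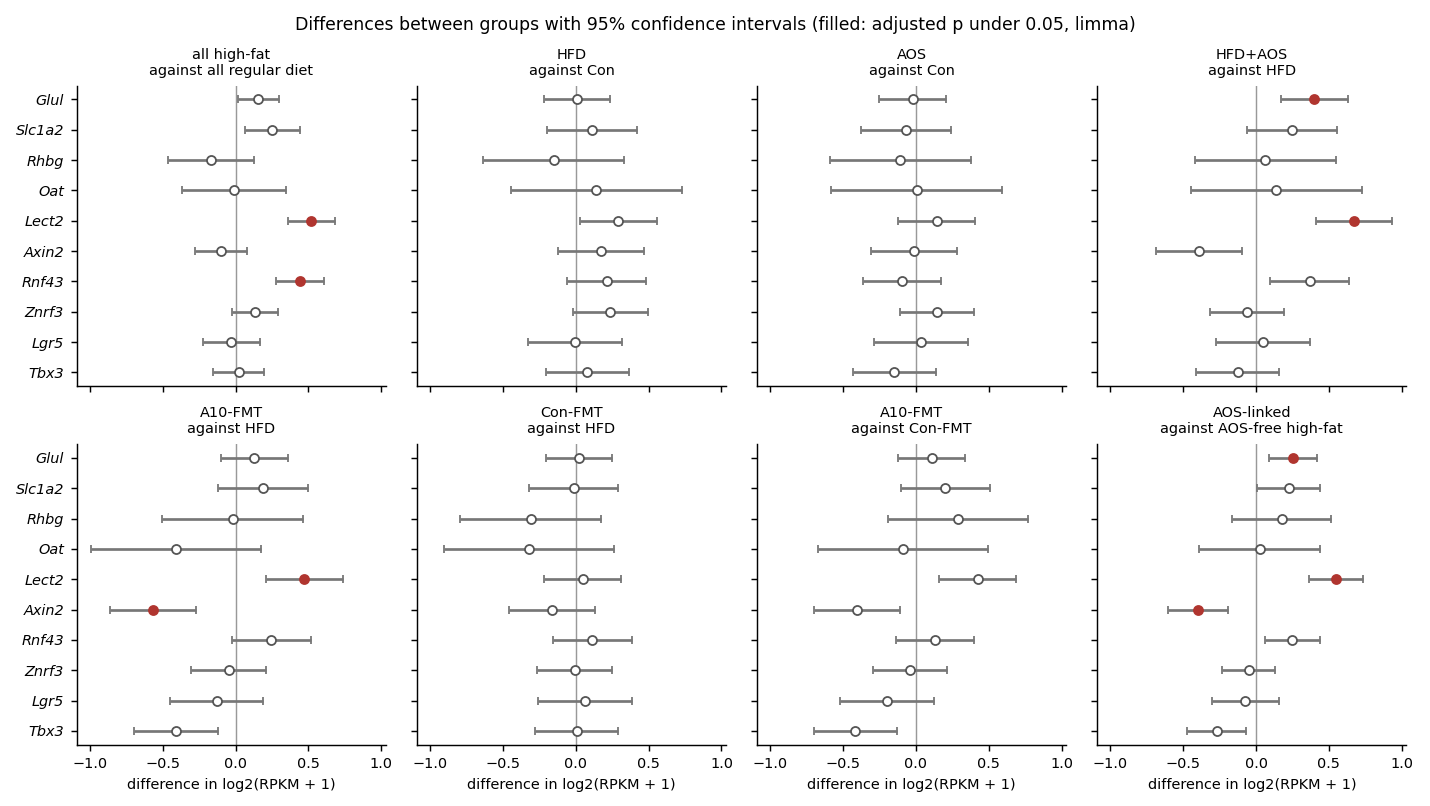
Differences of the 10 genes on the log2(RPKM + 1) scale in 8 comparisons, with 95% intervals from the limma fit and filled points at an adjusted p under 0.05. Lect2 was highest at 0.67 in HFD+AOS against HFD, and Axin2 lowest at -0.57 in A10-FMT against HFD.

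Lect2 and Axin2, both known to be switched on by beta-catenin, thus had differences of opposite sign between high-fat livers with and without AOS. On the regular diet neither passed in AOS against Con, with means of 89.8 and 81.41 RPKM for Lect2 and 1.903 and 1.92 for Axin2, and Axin2 was not called in HFD+AOS against HFD or in A10-FMT against Con-FMT. Their ratio in each liver, a measure chosen after the values were seen and given as a description, was 95.6 to 143 in HFD+AOS and A10-FMT and 36.8 to 67.6 in the other 12 livers. Over the 45 pairs of the 10 genes, 30 had a positive correlation across the 18 livers (Pearson's r of log2(RPKM + 1)), with a median r of 0.0687. The highest r was 0.824, for Lect2 and Rnf43, and it was 0.392 once group means were taken out. Glul and Lect2 had an r of 0.714 (0.143 within groups), and Axin2 and Tbx3 0.706 (0.571 within groups). For Axin2 and Lect2 the r was -0.462 across livers but 0.351 within groups, and the lowest was -0.508, for Slc1a2 and Axin2. The livers share groups, diets and library preparation, so these values describe the table and are not tested.

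**Figure D3:**
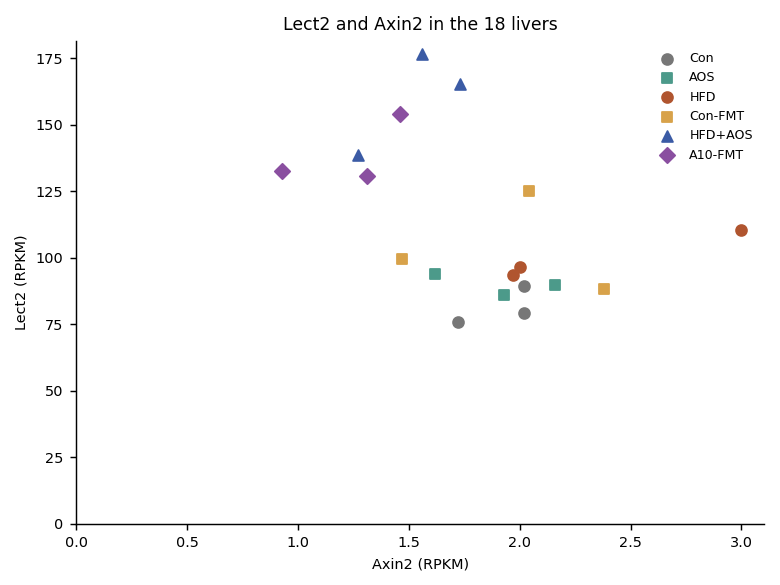
Lect2 against Axin2 in each of the 18 livers, in RPKM, coloured by group. The 6 livers of HFD+AOS and A10-FMT lie at 130.64 to 176.56 RPKM of Lect2 and 0.93 to 1.73 RPKM of Axin2, apart from the others in Lect2 and partly overlapping them in Axin2.

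The genes most like Glul, Axin2 and Oat across the 18 livers were found by Pearson's r over all genes tested. For Glul they were Atp6v0d2 (r = 0.832, 0.66 within groups), Lrrc29 (0.804), Gadd45a (0.777), Tmbim1 (0.776) and Lrrk1 (0.771), and the r of Gadd45a fell to 0.163 within groups. For Axin2 they were Taok1 (0.874, 0.742 within groups), Vps8 (0.855), Larp1 (0.849), Agtpbp1 (0.846) and Rabgef1 (0.846). For Oat they were Lhpp (0.856, 0.944 within groups), Parp3 (0.84), Ckb (0.812), Ube2v1 (0.755) and Ppp3cc (0.718). Lhpp, a phosphatase, lies on the same chromosome as Oat. Oat lies at chr7:132557478-132576398 on the minus strand and Lhpp at chr7:132610638-132706420 on the plus strand, 34.2 kb further on. Whether other genes lie between them was not checked. The liver with 173.63 RPKM of Oat also had the highest Lhpp, 18.96 RPKM, against 10.68 and 11.70 in the other HFD+AOS livers. In Con-FMT, replicate 3 had 13.34 RPKM of Lhpp and 100.13 of Oat, and the other livers had 8.31 and 8.86 of Lhpp with 55.36 and 58.55 of Oat. The genes start from opposite strands, and their annotated spans do not overlap. Whether reads kept their strand is not given, and the cause of the likeness was not tested.

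**Figure D4:**
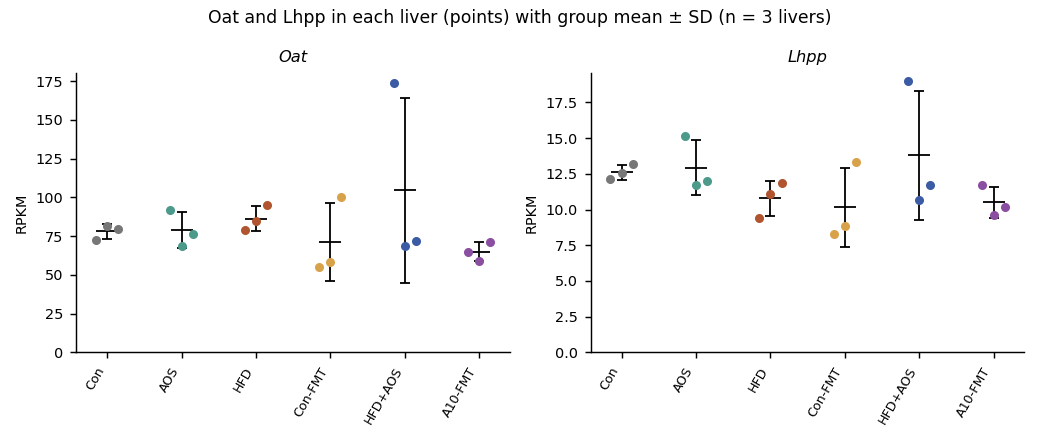
RPKM of Oat and of Lhpp in each of the 18 livers, in separate panels by group, with bars for the group mean and SD (n = 3). The HFD+AOS liver at 173.63 RPKM of Oat and 18.96 RPKM of Lhpp stands apart from the others, which lie between 55.36 and 100.13 RPKM of Oat.

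Of the 18 Wnt ligands, receptors and co-receptors listed, 12 passed the filter. The central vein ligands Wnt2 (0.44 to 1.01 RPKM) and Wnt9b (0.10 to 0.33 RPKM) were below it and were not tested, and Rspo3, the R-spondin of the central vein, had 1.48 to 2.38 RPKM and was called in none of the 10 comparisons. In HFD+AOS against HFD, 2 of the 12 rose, the receptors Fzd4 (by 0.63, adjusted p = 0.0034, limma) and Fzd8 (by 0.91, adjusted p = 0.00306), and 0 fell, where 8.75% of all genes were called in either direction. In A10-FMT against HFD, 1 fell, against 6.60% of all genes called. It was the co-receptor Lrp5 (by 0.77, adjusted p = 0.00332), which also fell against Con-FMT (by 0.67, adjusted p = 0.0199). With only the groups compared in the fit, both calls were lost (adjusted p = 0.0786 and 0.25), and the call against Con-FMT was also lost without replicate 1 (0.0862) or 2 (0.116) of A10-FMT or replicate 2 of Con-FMT (0.119). Between livers with and without AOS on the high-fat diet, 2 rose (Fzd4 by 0.45 and Fzd8 by 0.58) and 1 fell (Lrp5 by 0.54), 3 of 12 against 15.4% of all genes. Fzd4 was at 3.34 to 4.60 RPKM in the 6 livers of HFD+AOS and A10-FMT and at 1.98 to 3.08 in the other 12, without overlap, and Lrp5 at 6.74 to 11.52 against 12.05 to 16.57. The share of all genes with such a split was not counted, for these genes as for Lect2 and those below. Between these 6 and the other high-fat livers alone, 4.84% of all genes did not overlap. List genes were named mostly by small p-values in the same livers, so their separation is no independent result. Between all high-fat and all regular-diet livers, Fzd4 and Fzd8 were higher by 0.37 and 0.38, and the call of Fzd8 was lost without the third Con and AOS libraries. In HFD against Con alone they did not pass (Fzd4 0.10, adjusted p = 0.692, and Fzd8 0.02, adjusted p = 0.964), with HFD means of 2.457 and 2.80 RPKM against Con means of 2.21 and 2.69.

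Downstream, beta-catenin itself (Ctnnb1, 53.08 to 65.58 RPKM) and the TCF factor Tcf7l2 (3.17 to 4.71 RPKM) were called in none of the 10 comparisons. Of the 17 tested genes of cytoplasm and nucleus, 1 was called, in the comparison of the diets, where 12.9% of all genes were. It was Dvl1, a relay between receptor and destruction complex, which fell by 0.28 (adjusted p = 0.015, limma), a call lost without the third Con and AOS libraries. Of the 12 listed inhibitors and feedback genes, 4 were tested. In A10-FMT against HFD, in HFD+AOS against HFD and between the diets 1 of them was called. The shares of all genes called were 6.60%, 8.75% and 12.9%. Tnfrsf19, a receptor of the TNF family, rose in A10-FMT against HFD (by 0.51, adjusted p = 0.0246, a call lost in 4 of 12 alternatives, among them the fit without replicate 1 of A10-FMT) and in HFD+AOS against HFD (by 0.64, adjusted p = 0.00695), with means of 1.10, 1.277 and 0.47 RPKM in A10-FMT, HFD+AOS and HFD. It was near the limit of the filter, with 0.80 to 1.34 RPKM in the 6 livers of HFD+AOS and A10-FMT and 0.27 to 1.12 in the other 12. The gene passed the filter mainly through the groups in which it was high, so its calls are not independent of the filter. Notum, which removes the lipid of Wnt proteins, rose between the diets (by 0.38, adjusted p = 0.0115), from 13.77 to 18.12 RPKM, and without the third Con and AOS libraries this call too was lost.

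The 30 other pericentral hepatocyte genes, all of them tested, moved in both directions. In A10-FMT against HFD 4 rose and 1 fell, against 6.60% of all genes called, and in HFD+AOS against HFD 2 rose and 1 fell, near the 8.75% of all genes. Cyp2e1, a cytochrome P450 that oxidizes ethanol, rose in both comparisons (by 0.70, adjusted p = 0.00786, and by 0.63, adjusted p = 0.0128, limma). It had 4343.09 to 5937.15 RPKM in the 6 livers of HFD+AOS and A10-FMT and 1754.67 to 4325.27 in the other 12. Its call in A10-FMT was lost with only the groups compared (adjusted p = 0.0771), and that in HFD+AOS without replicate 3 of HFD (0.0568). Por, the reductase that hands electrons to P450 enzymes, rose in A10-FMT by 1.35 against HFD and by 1.34 against Con-FMT, where 2 of the 30 rose and 1 fell. Avpr1a, a vasopressin receptor, was the gene that fell in each of these comparisons, by 1.26 against HFD and 0.96 against Con-FMT in A10-FMT and by 0.96 in HFD+AOS. It had 6.56 to 11.72 RPKM in the 6 livers of HFD+AOS and A10-FMT and 12.94 to 23.68 in the other 12. Its call against Con-FMT was lost in 3 of 12 alternatives. Between the diets 4 rose and 6 fell, against 12.9% of all genes called, the former with Cyp2e1 (by 0.81) and Gulo (by 0.51), and the latter with Cyp2c29 (by 1.10). Between high-fat livers with and without AOS 7 rose and 1 fell, against 15.4%. Cyp1a2, another P450, fell between the diets (by 0.32, adjusted p = 0.00344, limma), unlike Cyp2e1. It rose in A10-FMT against Con-FMT (by 0.46, adjusted p = 0.0322), a call lost in 6 of 12 alternatives. It also rose between high-fat livers with and without AOS (by 0.32, adjusted p = 0.00833). Without replicate 1 of A10-FMT, 3 genes were called against HFD and 1 against Con-FMT, in place of 5 and 3, and Por was in neither count. The call of Por was lost in 3 of 12 alternatives against HFD and in 8 of 12 against Con-FMT. The median difference of the 30 genes was 0.07 in A10-FMT against HFD and 0.04 in HFD+AOS against HFD, and over all genes tested it was -0.03 and -0.0075. Reads of the Cyp2c and Gstm genes may have counted for more than 1 member if the table was made with the settings of the study's methods, which report every hit of a read.

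Periportal genes served as the other end of the lobule. Of 30, 1 rose and 1 fell in A10-FMT against HFD, a share near the 6.60% of all genes called, and 1 rose and 3 fell in HFD+AOS against HFD, where the share of all genes was 8.75%. Between high-fat livers with and without AOS 2 rose and 4 fell, against 15.4% of all genes. The arginine transporter Slc7a2 was the one that rose (by 0.81, adjusted p = 0.0205, and by 0.73, adjusted p = 0.0295, limma), a call lost in 4 of 12 alternatives in A10-FMT, among them the fit without its replicate 1, and in 6 of 12 in HFD+AOS, among them the fit without the third Con and AOS libraries. G6pc, the last enzyme of glucose release, fell in HFD+AOS (by 1.58, adjusted p = 0.0137), and the call was lost with only the groups compared (adjusted p = 0.0967) and without replicate 3 of HFD (0.0706) or replicate 1 (0.069) or 2 (0.0549) of HFD+AOS. Between the diets 7 rose and 1 fell, against 12.9% of all genes, and without the third Con and AOS libraries 3 genes were called in all. The urea cycle enzyme Cps1 (290.61 to 513.66 RPKM), the glutaminase Gls2 (88.59 to 159.82 RPKM), which releases ammonia from glutamine, and Cyp2f2 (1104.96 to 1582.82 RPKM) were called in none of the 10 comparisons.

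Among 34 genes of ammonia, glutamate and glutamine metabolism and transport, 26 were tested. Slc38a3, which moves glutamine across the hepatocyte membrane, rose in A10-FMT (by 0.71, adjusted p = 0.00791, limma) and HFD+AOS (by 0.87, adjusted p = 0.00199) against HFD. It had 716.09 to 1012.07 RPKM in the 6 livers of HFD+AOS and A10-FMT and 416.14 to 667.39 in the other 12. Its call in A10-FMT was lost with only the groups compared (adjusted p = 0.0573). The amino acid carrier Slc38a4 also rose in HFD+AOS (by 0.41, adjusted p = 0.041, a call that held in 2 of 12 alternatives), so that 2 of 26 rose there and 1 in A10-FMT, with 0 lower, near or below the shares of all genes called (8.75% and 6.60%). Between the diets 4 rose and 0 fell, near the 12.9% of all genes, and 1 call was left without the third Con and AOS libraries. Between high-fat livers with and without AOS 4 rose and 1 fell, against 15.4% of all genes, and 3 calls were left without those libraries. The gene that fell was Slc25a15, the ornithine carrier of mitochondria (by 0.32, adjusted p = 0.0241, a call lost in 6 of 18 alternatives). None of the 6 lists held a called gene in HFD, AOS or Con-FMT against their controls.

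**Figure D5:**
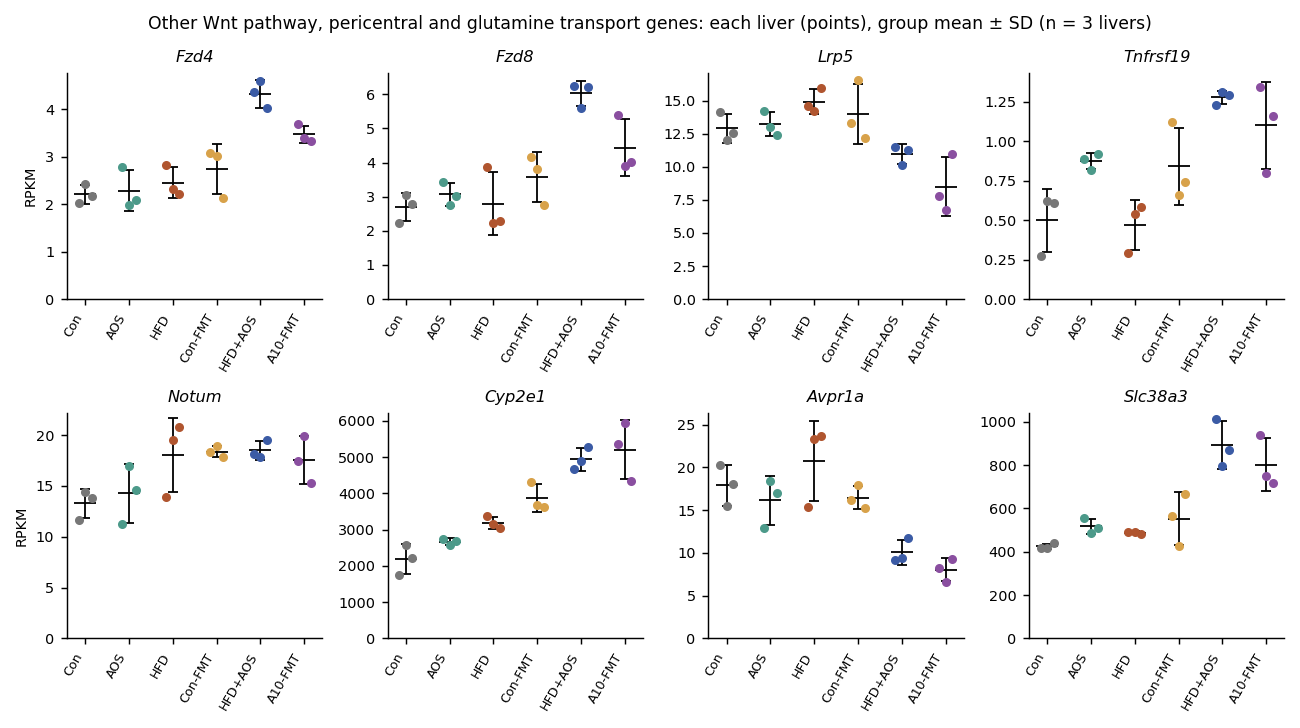
RPKM by liver and group for 8 genes of the pathway lists, with bars for the group mean and SD (n = 3). Fzd4 and Slc38a3 lie higher, and Avpr1a and Lrp5 lower, in the 6 livers of HFD+AOS and A10-FMT than in the other 12, with 3.34 to 4.60 against 1.98 to 3.08 RPKM for Fzd4. The share of all genes with such a split was not counted.

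Markers of other cells moved in part with the same groups. Between the diets, 4 of 7 Kupffer cell and macrophage markers fell (Clec4f by 0.55, Vsig4 by 0.55, Marco by 0.58 and Csf1r by 0.43, limma), against 12.9% of all genes called. The sum of this list was 57.8 to 101 RPKM on the regular and 43.6 to 100 on the high-fat diet. Of 7 endothelial markers 1 rose, Stab2 (by 0.31), near the 12.9% of all genes, and 4 of the 7 differences were above 0. Of 7 stellate markers 2 rose, Reln (by 0.54) and Colec11 (by 0.34), against the same share. Stellate sums were 85.9 to 116 RPKM on the regular and 94.6 to 139 on the high-fat diet. The cholangiocyte marker Sox9, which some hepatocytes near the portal tract also express, fell in A10-FMT (by 1.03) and HFD+AOS (by 0.87) against HFD. The other cholangiocyte markers tested did not pass and were on the other side of 0, with Krt19 at 0.18 and 0.04 and Spp1 at 0.24 and 0.45, while Krt7, Epcam and Cldn7 were below the filter. Endothelial sums were 41.9 to 54.2 RPKM over all libraries. The part of these cells in the results for Lect2, Rnf43, Axin2 and Glul was not tested.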

How the data were processed

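Liver RNA of 18 mice was sequenced, 3 in each of 6 groups taken from the sample labels, and table columns were matched to samples by their group names and numbers (0 columns of values without a sample). By their methods, the authors mapped reads to reference genes with SOAPaligner, at settings that report every hit of a read, and deposited RPKM values. The submitters' processing notes name Bowtie 0.12.2 and mm10 instead, and which aligner made the table was not settled. The header of the table names no unit, which was taken from the methods. Annotation and strandedness are not given in the sources used here. Of the symbols, 3 stand on more than 1 line, none of them among the 10 genes. Tests that need read counts were not run.

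The deposited RPKM values were taken as log2(RPKM + 1). Genes with at least 1 RPKM in at least 3 libraries were tested, with a mean per group fitted to the 18 libraries together (lmFit, then eBayes with a trend, of limma 3.58.1 under R 4.3.3, two-sided) and Benjamini-Hochberg adjustment over 10507 genes within each comparison. Calls are at an adjusted p under 0.05. Fits with only the groups compared, equal library medians, a pseudocount of 0.1, no filter, a stricter call, the replicate number as a block and each library left out were alternatives. The comparison of HFD+AOS with A10-FMT, the look at replicate 1 of HFD+AOS, which stands apart in Oat, and the counts of list genes under the alternatives were added after the data were seen. The 10 genes and the lists were chosen with earlier results of these data known. Named beside the 10 genes were the 5 genes most correlated with each of Glul, Axin2 and Oat, up to 3 called genes with the smallest p per list and comparison, and fixed genes of the pathway and of the zones. Csf1r, Krt19, Spp1 and the markers below the filter were named after their values were seen. On simulated data of HFD+AOS against HFD over 10507 genes, the fit called 60 of 100 genes given a log2 change of 0.5 and 94 of 100 given a log2 change of 1, 0 in the wrong direction, with 4 unchanged genes called. Gene positions are from GENCODE M21 (GRCm38) and promoters from RefSeq (GRCm38.p6), matched by symbol. Tables and figures were made with Python 3.11.15, numpy 2.4.6, pandas 2.3.3 and matplotlib 3.10.9.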

Additional observations from a re-analysis of the deposited data

Results flagged for a closer look

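Gulo, a pericentral gene for an enzyme of vitamin C synthesis in mice, was the single gene of the lists called for the interaction of AOS and diet. Its interaction was 0.57 on the log2(RPKM + 1) scale (adjusted p = 0.0355, limma). It was 1 of the 30 other pericentral genes, where 0.504% of all genes were called. Its mean level was 120.3 RPKM in AOS against 137.3 in Con, and 207.1 in HFD+AOS against 159.5 in HFD. The call held in 6 of 18 alternatives and was lost without the third Con and AOS libraries, with adjusted p-values from 0.0135 to 0.261. Glul, Lect2 and Rnf43 had interactions of 0.42, 0.53 and 0.46 that did not pass, and neither did that of Fzd4, 0.60 (adjusted p = 0.108, limma). Genes that did not pass are not shown to lack such a difference.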

How the results depend on the processing

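Over all alternatives, 358 values of the 10 genes (those at an unadjusted p under 0.05) kept their direction and side of the threshold, 28 lost their call, 12 gained one and 0 changed direction. The 358 include values that were not called in the main fit and stayed so. Only called values could lose a call, so 28 beside 358 understates the share of calls lost. The calls of Lect2 and Rnf43 between the diets held in 23 of 23 alternatives, and those of Lect2 in HFD+AOS against HFD (12 of 12) and of Lect2 and Axin2 between high-fat livers with and without AOS (18 of 18 each) held as well. In A10-FMT against HFD, 2 of the 10 genes were called, and 1 without the filter, 0 without the third Con and AOS libraries, 0 with only the groups compared and 0 to 3 with a library left out. In HFD+AOS against HFD the 2 calls became 1 without the third Con and AOS libraries, 1 with only the groups compared and 1 to 3 with a library left out. Calls over all genes also became fewer once replicate 3 of Con and of AOS was dropped. They went from 693 to 395 in A10-FMT against HFD and from 919 to 496 in HFD+AOS against HFD. Such counts are not given here for the fits with only the groups compared. With a library left out, 0 to 1 of the 10 genes were called in A10-FMT against Con-FMT. The range was 2 to 3 between the diets and 2 to 5 between livers with and without AOS. At an adjusted p of at most 0.001 and a log2 change of 1 or more in size, the cut-offs of the study's methods on another test, the count was 0 in each comparison. The largest difference of the 10 genes in the main fit, 0.67 for Lect2 in HFD+AOS against HFD, was below that size. The share of all genes under these cut-offs is not given here. With equal medians 3 were called in HFD+AOS against HFD and 4 between livers with and without AOS (Rnf43 in addition), and the share of higher genes among all calls moved from 39.7% to 56.4% in A10-FMT against HFD, from 27.1% to 44.4% against Con-FMT, from 77.5% to 51.1% in HFD against Con, from 71.4% to 50% in AOS against Con, from 28.3% to 47.7% for the interaction and from 40.2% to 53.3% between livers with and without AOS. Replicate numbers do not pair the samples, since correlations of same-numbered deviations went from -0.177 to 0.225. With the replicate block, 2 genes were called in A10-FMT against HFD, 2 in HFD+AOS against HFD, 2 between the diets and 4 between livers with and without AOS (Tbx3 in addition), and 0 in the other comparisons. The causes of these differences were not tested. Depth limits Lgr5, Znrf3 and Axin2 most, with counting errors of 10% to 13% at the median.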
